A study of Mus musculus with 35 samples.

Results

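Primary enteric glial cultures on poly-L-ornithine were compared with and without interleukin-1β (IL-1β). The comparison took every library whose label gives poly-L-ornithine as the coating, which is 10 of the 35 libraries of the series, 5 labelled IL-1β and 5 labelled naive. Cells came from the small intestinal muscularis externa of wildtype mice on a BL6 background, which the study's methods give as C57BL/6J animals of 8 to 16 weeks, and both groups were grown as neurospheres for 7 days and then differentiated on poly-L-ornithine, a synthetic positively charged polymer that carries no matrix protein. The IL-1β group received 10 ng/ml of the cytokine for 24 h and the naive group received control medium without it, on day 3 of differentiation by the labels. The study's methods place the treatment later than the labels do. Each library is labelled as a separate biological replicate. RNA was taken from whole cultures without sorting, and the study describes cells with smooth muscle actin beside the glia, so each value is an average over the cell types present. In such bulk samples, fewer cells of a type and less RNA per cell cannot be told apart.

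IL-1β binds the receptor IL-1R1, which pairs with its accessory protein and recruits the adaptor MyD88 and IRAK kinases. The signal frees NF-κB from its inhibitor IκB and activates AP-1 through stress kinases, and both then act on promoters of cytokine, chemokine and acute-phase genes. Enteric glia are the support cells of the gut's own nervous system, and IL-1 is a known trigger of their inflammatory state in the muscle layer of the gut.

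Values are 3′ read counts per gene after the authors' scaling between libraries, called normalised counts here. The 10 libraries summed to between 7838047 and 8997924 normalised counts, and 12141 to 12761 genes per library were above 15. Between 14% and 22.4% of all counts came from the 10 most abundant genes. The enteric glial label was checked with Sox10 and S100b, which show that glia were present and not their share. In every library the transcription factor Sox10 was between 4384 and 11309 and the calcium-binding protein gene S100b between 468.4 and 3240.2 normalised counts. Summed over 20 glial markers, the level was 22522 to 48022 in naive and 18156 to 30359 in treated libraries. Summed over 14 fibroblast markers, it was 31811 to 67790 and 21466 to 67235. Such sums do not give shares of cells. In separate reporter cultures, the study found a lower share of glia on poly-L-ornithine than on Matrigel or laminin.

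IL-1β changed the expression of 484 genes on poly-L-ornithine. Of 20687 genes tested, 249 (1.2%) rose and 235 (1.14%) fell at an adjusted p under 0.05 in limma, fitted to log2(normalised count + 2). Fold changes below are on that scale with their standard error, which understates the change of genes near 0. The genes that rose did so by a median of 1.44 and those that fell by a median of -1.44, and changes above 3 were seen for 67 genes that rose and 46 that fell. All 5 IL-1β libraries lay above all 5 naive libraries for 381 of the genes tested (1.84%) and below them for 357 (1.73%). For 18 of the genes that rose, all naive libraries were listed at 0. At an unadjusted p under 0.05 in limma were 2340 of the 20687 genes tested, the background for such counts in the lists below. Treatment groups were further apart than replicates over all genes tested. Between-group distance took 17% of the variance (pseudo-F 1.64), and the one-sided exact permutation p of 0.00794 is the smallest that 5 against 5 libraries allow. The first principal component, with 17.2% of the variance, put the treated libraries between 44.68 and 79.47 and the naive libraries between -72.68 and -48.71.

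**Figure D1:**
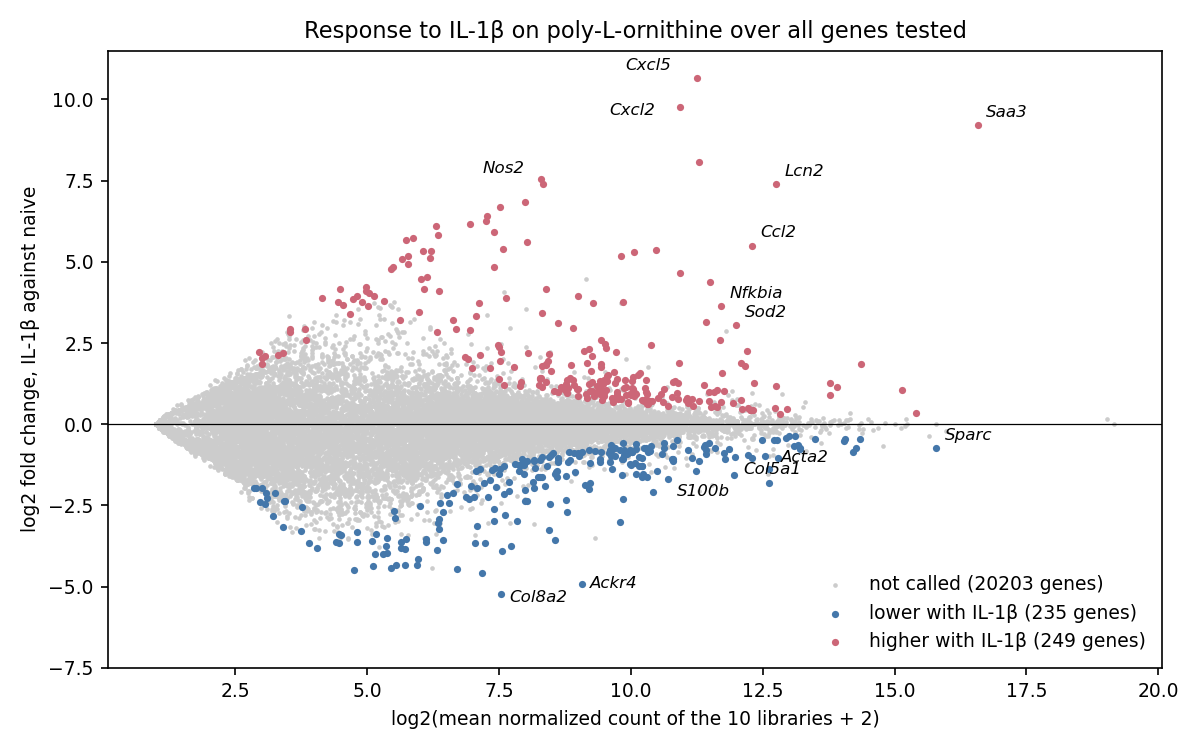
Log2 fold change of IL-1β against naive on poly-L-ornithine (vertical axis) against the log2 mean normalised count of the 10 libraries (horizontal axis) for each of the 20687 genes tested. Red points are the 249 genes that rose, blue points the 235 that fell and grey points those not called. The upper right holds abundant induced genes such as Saa3 and Lcn2, and no gene fell by as much as Cxcl5 rose.

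Chemokines that attract neutrophils held the 2 largest fold changes of all genes, those of Cxcl5 and Cxcl2. Of 7 neutrophil CXC chemokines tested, 3 rose and none fell, with a list median of 2.77 against 0 for all genes. Cxcl5 (chr5:90759298-90761625 of mm10) was listed at 0, 0, 0, 10.5 and 0 in naive replicates 1 to 5 and at 3335, 4063, 6475, 4054 and 6286 normalised counts in IL-1β replicates 1 to 5 (log2 fold change 10.66 ± 0.54, adjusted p = 3.01e-20). Cxcl2 was at most 10.2 in naive libraries and at 3415, 2777, 6692, 1750.4 and 4749 with IL-1β (log2 fold change 9.78 ± 0.58, adjusted p = 5.91e-20). Cxcl1 was at 20.4, 0, 32.2, 24.1 and 39.2 in naive and at 3425, 6577, 6509.5, 2840.1 and 5494 in treated libraries (log2 fold change 8.07 ± 0.85, adjusted p = 8.78e-07). These 3 ligands of the receptor CXCR2 went from at most 39.2 to at least 1750.4 normalised counts, and no treated library came near a naive one.

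Of 20 monocyte and other chemokines and growth factors tested, 10 rose and none fell, the list median was 2.22 and 15 of the 20 had a fold change above 0. Ccl2, the main monocyte attractant, was already expressed in naive cultures, at 194, 217, 271, 239 and 158 normalised counts in replicates 1 to 5, and reached 7983, 8806, 13691, 7849 and 11075 with IL-1β. The mean was 45.8 times as high (log2 fold change 5.49 ± 0.20, adjusted p = 3.31e-29), the smallest adjusted p of all genes. Its neighbour on chromosome 11, Ccl7, went from a range of 168 to 377 in naive to one of 2872 to 7960.3 in treated libraries (log2 fold change 4.38 ± 0.41, adjusted p = 9.72e-08). Both genes had separate ranges with treated replicates far above the naive ones.

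Ccl5, an attractant of T cells and monocytes, was listed at 0, 0, 0.92, 0 and 0 in naive and at 139, 613, 1372, 52.4 and 1028 in IL-1β libraries (log2 fold change 7.41 ± 0.98, adjusted p = 1.02e-06). The treated replicates differed widely for this gene, with the highest far above the lowest, yet all of them exceeded the naive libraries. Cxcl10, a ligand of CXCR3, was at 23 in naive replicate 1 and 0 in the others, and at 416, 449, 248, 185 and 208 after treatment (log2 fold change 6.42 ± 0.77, adjusted p = 3.06e-08). Csf1, the growth factor of macrophages, started from a high naive level of 1289 to 3023 and rose 3.39-fold to 6179 to 8438 (log2 fold change 1.80 ± 0.19, adjusted p = 7.4e-08). The list also held Ccl11, Ccl17, Ccl20, Cx3cl1 and Cxcl16 among the genes that rose, of which Ccl11 and Cx3cl1 were not called under limma-voom.

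Markers of leukocytes were low in both groups. The pan-leukocyte gene Ptprc was listed at 0 in all 5 IL-1β libraries and reached at most 17.5 in naive libraries. Summed over 17 macrophage and leukocyte markers, the level was 196 to 967 in naive and 379 to 1770 normalised counts in treated libraries, where Cd3e and Cd79a were at 0 in all 10, and 0 of 15 markers tested were called in limma or limma-voom, with 1 at an unadjusted p under 0.05.

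**Figure D2:**
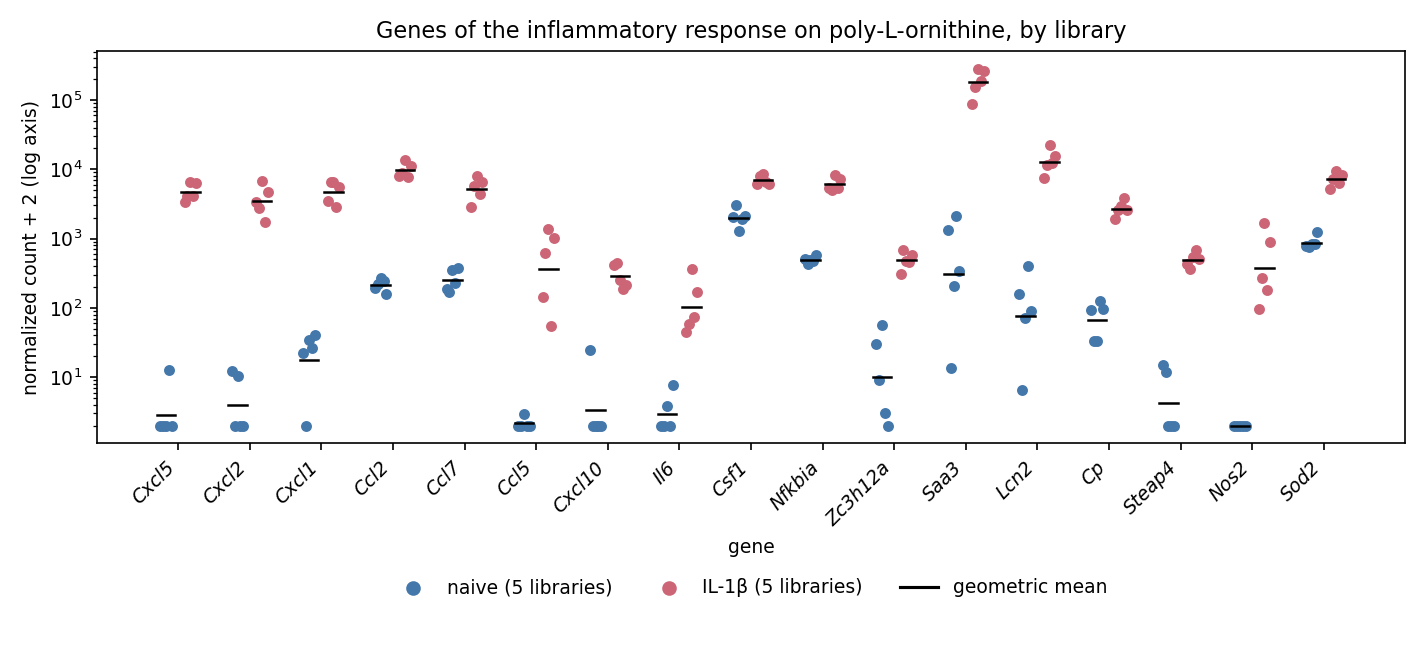
Normalised counts plus 2 on a log axis for 17 genes of the inflammatory response, with 1 point per library, naive in blue and IL-1β in red, and a bar at the geometric mean. Every treated library lies above every naive library for each gene shown, and the chemokines Cxcl5, Cxcl2, Ccl5 and Cxcl10 start at or near 0.

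In the IL-6 family, which signals through the shared receptor gp130, 2 of 17 genes tested rose and none fell (median 0.38). Il6 itself was at 0, 0, 1.84, 0 and 5.6 in naive and at 43.2, 56.5, 367, 71.5 and 167 normalised counts in IL-1β libraries (log2 fold change 5.13 ± 0.97, adjusted p = 0.000397), so the groups did not overlap, while treated replicates spread widely. Jak2, the kinase attached to cytokine receptors, was 3.62 times as high with IL-1β (log2 fold change 1.85 ± 0.34, adjusted p = 0.000254). Il13ra2, a decoy receptor for IL-13, was among the largest increases, from a range of 0 to 4.67 in naive to one of 103 to 209.8 in treated libraries (log2 fold change 5.82 ± 0.80, adjusted p = 8.78e-07).

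Several regulators of the NF-κB pathway rose. Of 20 subunits and feedback inhibitors tested, 7 rose (Bcl3, Nfkb2, Nfkbia, Nfkbiz, Relb, Tnip1 and Zc3h12a) and none fell, with a median of 1.22. Nfkbia, which encodes IκBα and is the classical feedback target of NF-κB, was at 513, 431, 481, 465 and 571 in naive replicates 1 to 5 and at 5293, 4945, 8217, 5397 and 7223 in IL-1β replicates 1 to 5 (log2 fold change 3.63 ± 0.19, adjusted p = 3.01e-20). Zc3h12a encodes Regnase-1, an endonuclease that degrades inflammatory mRNAs such as that of Il6, and went from a range of 0 to 54.3 in naive to one of 309 to 688 normalised counts in treated libraries (log2 fold change 5.62 ± 0.72, adjusted p = 9.93e-07). The atypical IκB proteins followed, with Bcl3 at 50.6 to 144 and then 524 to 979 (log2 fold change 3.11 ± 0.33, adjusted p = 8.34e-10) and Nfkbiz at 90.4 to 249 and then 667 to 1636 (log2 fold change 2.61 ± 0.33, adjusted p = 6.79e-07). Ranges were separate for all 4 of these genes. With only the 10 poly-L-ornithine libraries in the fit, 12 of the 20 rose. That fit called more genes in general, 341 higher and 338 lower of 17705 tested, which is the background for its counts in the lists below.

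The promoters of induced genes were read to show the sequences at which NF-κB and AP-1 are known to act. RefSeq promoters of GRCm38.p6, from 250 bases before to 50 after each start, were found for 15 of 22 genes searched. The genes searched were the 15 largest rises among the named genes and the 7 members of the NF-κB list that rose. As the latter were picked from that pathway, the share of the NF-κB spelling among the genes searched describes a chosen set. The search was for GGNNTTTCC, a spelling of the NF-κB site searched on both strands, and for TGANTCA, a spelling of the AP-1 site that reads the same on the other strand. The first was in 9 of the 15 genes and in 6.62% of the 27025 genes of the table (5.82% of its 32851 promoters), and the second in 5 of the 15 and in 8.97% of all genes (7.81% of promoters). Over all genes that rose and had a promoter in the table, 35 of 189 (18.52%) held the NF-κB spelling, beside 10 of 180 genes that fell (5.56%) and 7.02% of 12866 genes not called. For the AP-1 spelling these shares were 10.05%, 12.22% and 7.07%. The following stretches upstream of the start are given 5′ to 3′ on the strand of the gene, with matches to either spelling in capitals.
Cxcl2 (chr5:90903783-90903850, plus strand): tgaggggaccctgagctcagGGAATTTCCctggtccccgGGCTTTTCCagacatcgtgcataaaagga
Cxcl1 (chr5:90891136-90891203, plus strand): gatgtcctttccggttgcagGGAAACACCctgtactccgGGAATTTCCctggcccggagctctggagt
Nfkbia (chr12:55492648-55492845, minus strand): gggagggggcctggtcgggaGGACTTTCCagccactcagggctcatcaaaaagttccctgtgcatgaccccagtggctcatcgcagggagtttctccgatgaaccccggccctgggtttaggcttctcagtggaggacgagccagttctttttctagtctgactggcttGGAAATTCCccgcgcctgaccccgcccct
Bcl3 (chr7:19822831-19822879, minus strand): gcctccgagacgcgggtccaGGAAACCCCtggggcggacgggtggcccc
Cxcl10 (chr5:92348937-92349067, minus strand): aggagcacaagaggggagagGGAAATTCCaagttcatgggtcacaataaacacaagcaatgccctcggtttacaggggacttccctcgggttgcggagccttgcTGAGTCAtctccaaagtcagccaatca
Steap4 (chr5:7960226-7960274, plus strand): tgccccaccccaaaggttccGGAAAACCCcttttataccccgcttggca
Mmp10 (chr9:7502259-7502305, plus strand): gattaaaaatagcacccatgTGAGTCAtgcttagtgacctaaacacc
Cxcl2 and Cxcl1 each hold a pair of NF-κB matches spaced alike, and Cxcl10 holds both spellings. Mmp10 holds the AP-1 spelling alone within this window. No match to either spelling was found in the windows of Lcn2, Vnn3, Tnip1 and Zc3h12a, which says only that these letters are not there.

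Among AP-1 and immediate early factors, 7 of 20 tested rose and 1 fell, with a median of 0.36. Cebpd, a transcription factor of the acute-phase response, went from a range of 689.6 to 1485 in naive to one of 4774 to 6564 normalised counts in treated libraries (log2 fold change 2.58 ± 0.16, adjusted p = 2.82e-18). Ier3, an early gene that modulates cell survival, rose 8.94-fold (log2 fold change 3.16 ± 0.27, adjusted p = 3.21e-09) and Junb, a subunit of AP-1, rose 2.64-fold (log2 fold change 1.40 ± 0.25, adjusted p = 0.000214). Fosl1, Fosl2, Maff and Cebpb were the others that rose. The Cebpb call was lost with only the 10 poly-L-ornithine libraries in the fit (adjusted p = 0.145). Klf2, a quiescence factor, was the member that fell.

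Acute-phase and iron-handling proteins were, with the monocyte chemokines, the list with most members changed. Of 20 tested, 10 rose and none fell, and the median was 2.08. Saa3, serum amyloid A3, became one of the most abundant transcripts, at 87531, 154608, 283697, 189814 and 258182 normalised counts in IL-1β replicates 1 to 5. Its naive values were 1314, 11.8, 202, 2089 and 339.9, a wide spread, yet the lowest treated library was above the highest naive one (log2 fold change 9.2 ± 1.22, adjusted p = 2.92e-05). Under limma-voom, which weights values by their mean, this call was lost (adjusted p = 0.978). Lcn2, lipocalin-2, which binds bacterial siderophores, was at 154, 4.52, 69, 396 and 88.7 in naive and at 7364, 11625, 22090.1, 12157 and 15346 in treated libraries (log2 fold change 7.40 ± 0.88, adjusted p = 5.1e-06). It too was not called under limma-voom (adjusted p = 0.487).

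Genes of iron-handling proteins rose beside them. Hp, haptoglobin, which binds free haemoglobin, was at most 1.87 in naive libraries and at 29.1, 287, 414, 217 and 862 normalised counts with IL-1β (log2 fold change 6.68 ± 0.94, adjusted p = 1.53e-06). Steap4, a metalloreductase, went from 12.8, 9.94, 0, 0 and 0 to 433, 356, 546, 674 and 499 (log2 fold change 6.85 ± 0.72, adjusted p = 7.93e-10). Cp, the ferroxidase ceruloplasmin, was 37.2 times as high (log2 fold change 5.36 ± 0.46, adjusted p = 2.09e-08), from a range of 30.7 to 124 in naive to one of 1902 to 3809 in treated libraries. None of these genes had overlapping groups. Slc11a2, the divalent metal transporter DMT1, rose 4.89-fold (log2 fold change 2.35 ± 0.21, adjusted p = 3.7e-12), and Fth1, Lbp, Saa1 and Serpina3g completed the 10. Lbp was not called under limma-voom.

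Complement changed in few members. Of 17 tested, 2 rose and 1 fell, with a median of -0.35. C3, the central component, went from a range of 55.2 to 446 in naive to one of 1997 to 6435 in treated libraries (log2 fold change 4.65 ± 0.74, adjusted p = 0.000331) and Cfb, factor B of the alternative pathway, from a range of 0 to 48.6 in naive to one of 86.3 to 133 in treated libraries (log2 fold change 4.16 ± 0.78, adjusted p = 0.000379). Both are components of the alternative convertase, and both calls were lost under limma-voom (adjusted p = 0.195 and 0.0749). Masp1, a protease of the lectin pathway, was the member that fell, from a range of 99.9 to 411 in naive to one of 26.9 to 101 in treated libraries, which cross at their ends. It was not called under limma-voom, which left 0 of the 17 genes called.

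Several enzymes that handle oxygen radicals and nitric oxide rose. In the antioxidant list 5 of 20 rose and none fell, with a median of 0.50. Another member, Gpx1, was called lower under quantile normalization, scaling to the median total and limma-voom. With the 10 poly-L-ornithine libraries alone, 7 rose and none fell. Sod2, mitochondrial superoxide dismutase, was at 772, 742, 835, 832 and 1224 in naive and at 5216, 7158, 9491, 6356 and 8306 normalised counts in IL-1β libraries, 8.29 times as high on average (log2 fold change 3.04 ± 0.16, adjusted p = 3.01e-20). The peroxiredoxins Prdx1 (log2 fold change 1.14 ± 0.22, adjusted p = 0.00249) and Prdx5 (log2 fold change 0.77 ± 0.14, adjusted p = 0.00015) rose by less, and the metallothionein Mt2 went from a range of 4478 to 14456 in naive to one of 26248 to 39497 in treated libraries (log2 fold change 1.85 ± 0.36, adjusted p = 0.00357). Ranges of Sod2 did not overlap.

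Nos2, the inducible nitric oxide synthase, was listed at 0 in all 5 naive libraries and at 94.3, 269.5, 1679, 180.3 and 893 in the treated ones (adjusted p = 6.34e-08). The level in replicate 3 was many times that in replicate 1. Odc1, which makes the polyamine putrescine, rose 2.06-fold (log2 fold change 1.04 ± 0.23, adjusted p = 0.00795), and these were the only 2 of 14 genes of arginine, nitric oxide and polyamine metabolism to be called. Gch1, which makes a cofactor of nitric oxide synthase, was at 74.9, 0, 121, 80.6 and 70 in naive and 225, 556, 485, 216 and 237 in treated libraries. Its groups did not overlap, but it did not pass the test (adjusted p = 0.0505). It did pass without naive replicate 3 (adjusted p = 0.0295) and with a pseudocount of 8 (adjusted p = 0.00348). The same held with a filter at a mean of 50 (adjusted p = 0.0296) and under quantile normalization (adjusted p = 0.0416). Of 16 genes of prostaglandin synthesis and receptors, 2 rose and 1 fell, while 4 rose and 0 fell with the 10 poly-L-ornithine libraries alone. Ptges, the inducible prostaglandin E synthase, went from a range of 125 to 214 in naive to one of 286 to 1773 normalised counts in treated libraries (log2 fold change 2.26 ± 0.38, adjusted p = 0.000115).

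Several matrix-degrading enzymes and adhesion molecules rose. Of 19 metalloproteinases and inhibitors tested, 5 rose and none fell (median 0.52), and limma-voom called 2. Mmp10, stromelysin-2, was at 37.5, 0, 0, 0 and 0 in naive and at 72.3, 152, 827, 112 and 463 in IL-1β libraries (log2 fold change 5.91 ± 1.00, adjusted p = 6.64e-05). Mmp13, a collagenase, was at most 7.66 in naive libraries and at 32.6, 54.3, 172, 58.4 and 204 with treatment (log2 fold change 4.94 ± 1.01, adjusted p = 0.00122). Both groups were separate for these genes. Mmp9, a gelatinase, rose 34.7-fold (log2 fold change 5.32 ± 0.96, adjusted p = 0.00142) and the inhibitor Timp1 5.03-fold (log2 fold change 2.25 ± 0.46, adjusted p = 0.00548), from a naive level of 824 to 2619 to 2939.6 to 12837. The calls of Mmp9 and Timp1 were lost under limma-voom (adjusted p = 0.113 and 0.0653), and that of Timp1 also with the 10 poly-L-ornithine libraries alone (adjusted p = 0.0556).

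In leukocyte adhesion, 3 of 12 rose and 1 fell. Vcam1, the ligand of the integrin VLA-4, went from a range of 128 to 343 in naive to one of 856 to 1476 normalised counts in treated libraries (log2 fold change 2.48 ± 0.31, adjusted p = 4.06e-07), and Cd44, the hyaluronan receptor, from 1649.9, 1851, 2210.1, 1591 and 1830.3 to 5895, 5663, 9197, 5124 and 8429 (log2 fold change 1.88 ± 0.15, adjusted p = 8.86e-15). Ncam1, a neural adhesion molecule of glia and neurons, fell from 1616, 1483, 1545, 1454 and 2320.5 to 761, 694, 562, 726 and 671 (log2 fold change -1.28 ± 0.22, adjusted p = 6.64e-05). The groups did not overlap for any of these 3 genes. Icam1, the ligand of LFA-1, rose in the full set of libraries (log2 fold change 2.45 ± 0.59, adjusted p = 0.0226), but the call was lost on leaving out any of naive replicates 1, 2 or 5 or IL-1β replicates 3 or 5 (adjusted p = 0.0524 to 0.092).

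Few interferon-stimulated genes changed. Of 29 tested, 3 rose and none fell, and the median was 0.33. Gbp2 and Gbp5, guanylate-binding GTPases, went from a range of 57.9 to 138 in naive to one of 728 to 983 in treated libraries (log2 fold change 2.97 ± 0.33, adjusted p = 4.31e-09) and from a range of 0 to 16.2 in naive to one of 50.4 to 159.7 in treated libraries (log2 fold change 4.47 ± 0.87, adjusted p = 0.000587). Irf1, a transcription factor common to interferon and NF-κB signaling, rose 2.3-fold (log2 fold change 1.37 ± 0.29, adjusted p = 0.00168), a call lost with the 10 poly-L-ornithine libraries alone (adjusted p = 0.0686). In antigen presentation 4 of 19 genes rose and none fell. H2-K1, a class I heavy chain whose reads may be shared with near-identical copies, rose 2.15-fold (log2 fold change 1.09 ± 0.18, adjusted p = 6.23e-05), and H2-D1, Psmb8 and Tapbp, all of the class I pathway, were the others. H2-D1 was not called under quantile normalization, scaling to the median total or limma-voom, nor Psmb8 under limma-voom. Cd40, a costimulatory receptor outside that pathway, was called higher under quantile normalization, under limma-voom and with the 10 poly-L-ornithine libraries alone.

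Some of the largest increases lay outside the lists. Sprr2b, a small proline-rich protein of cornified epithelia, went from 0, 0, 0, 0 and 20.5 to 417, 179, 105, 192 and 595 normalised counts (log2 fold change 6.26 ± 0.89, adjusted p = 1.56e-06), and its reads may be shared with close relatives of the family. Vnn3, a pantetheinase, was listed at 0 in every naive library and at 165, 142, 69.6, 61.4 and 129 in treated ones (adjusted p = 8.05e-06). Trdc, annotated as the constant region of the T-cell receptor δ chain, was at 0, 0, 14.7, 0 and 0 in naive and at 127, 192, 419.6, 184 and 269 in treated libraries (log2 fold change 6.18 ± 0.98, adjusted p = 1.77e-05). The T-cell marker Cd3e was at 0 in the same libraries. Epithelial markers summed to at most 35.8 normalised counts in any library.

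No gene of the receptor complex that reads IL-1β passed the test. Of 16 genes of the receptors and adaptors tested in limma, 0 were called, there or in limma-voom, and 5 had an unadjusted p under 0.05. The median was 0.33, and 2 of the genes did not overlap between groups. Il1r1 was at 60.4, 66, 167, 86.9 and 54.2 in naive and at 76.7, 94.5, 351, 133 and 215 normalised counts in IL-1β libraries (log2 fold change 0.89 ± 0.47, adjusted p = 0.494). Scaled to the mean of Gapdh, Rpl32, Actb and Pgk1, it was 3.39, 3.20, 10.6, 4.42 and 3.28 per 1000 in naive replicates and 5.83, 5.87, 25, 8.63 and 13.2 in treated ones. Replicate 3 was the highest of each group and the groups overlapped. Each treated replicate was above the naive replicate of the same number. Were these numbers pairs, an exact sign-flip test over them gave p = 0.0625, the smallest that 5 pairs allow. The mean was 2.35 times as high with IL-1β (11.7 ± 8.01 against 4.97 ± 3.17, SD, n = 5), with a two-sided exact permutation p of 0.0794. Without naive replicate 3 the ratio was 3.27 and the exact p 0.0317, and without IL-1β replicate 1 or 2 the ratio was 2.65 and the exact p 0.0476 in each case. The mean of the 4 reference genes was itself lower with IL-1β, at 13154 to 16311 against 15761 to 20619, with a small overlap. Myd88 was 1.61 times as high (adjusted p = 0.23).

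**Figure D3:**
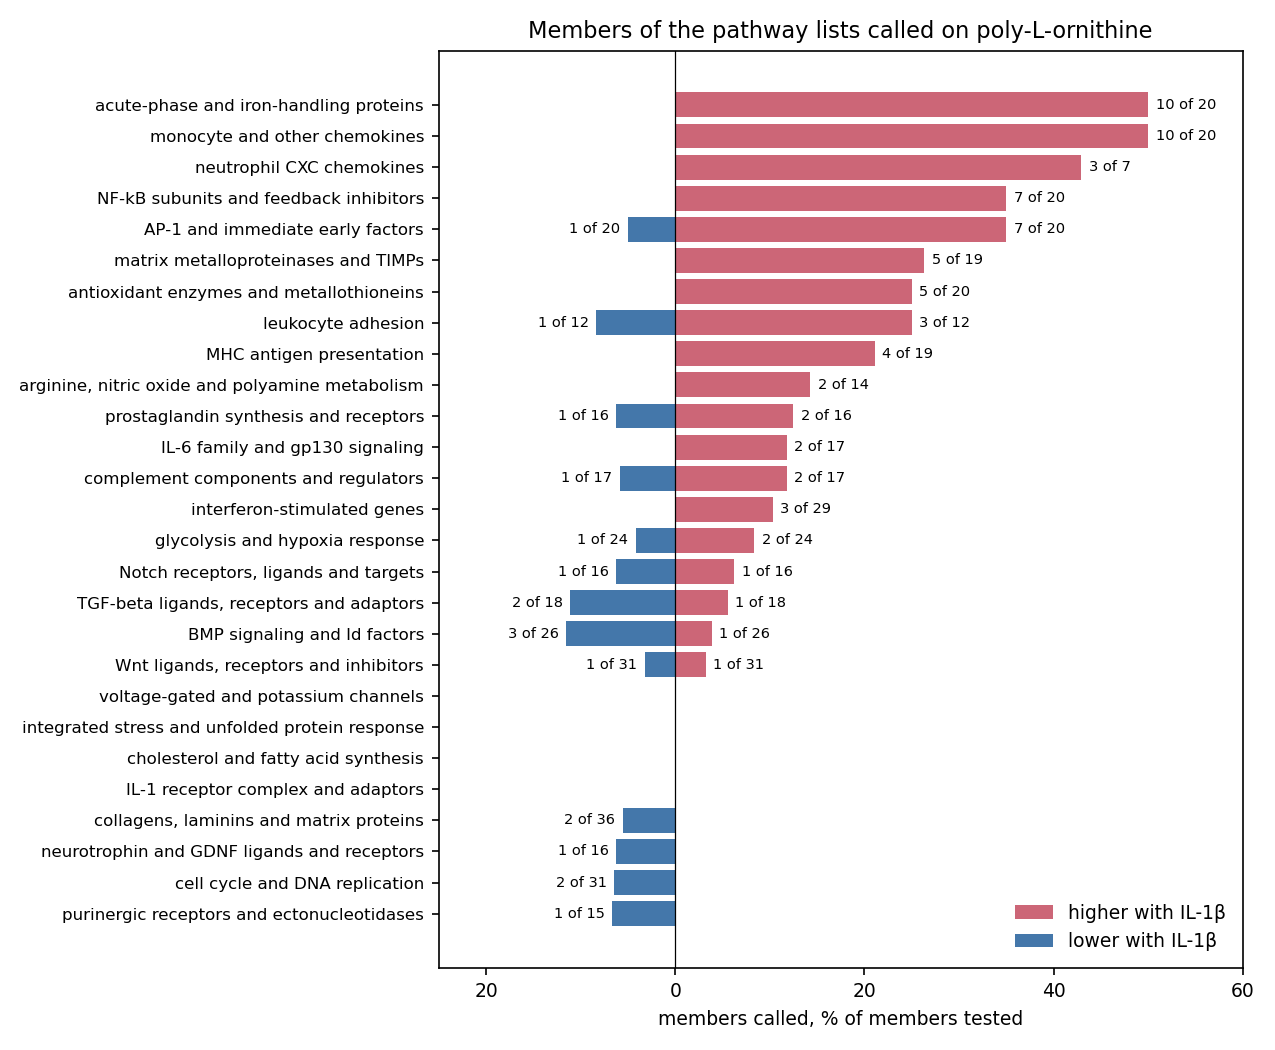
Share of the tested members of each of the 27 pathway lists that rose (red, to the right of 0) or fell (blue, to the left) with IL-1β on poly-L-ornithine, in percent of members tested, with the counts beside each bar. Over all genes tested 1.2% rose and 1.14% fell, and the longest bars are those of acute-phase proteins and monocyte chemokines, at 10 of 20 members each.

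The largest fall was -5.22, against a largest rise of 10.66. Ackr4, an atypical receptor that scavenges chemokines such as CCL19 and CCL21, was at 782, 1439, 928, 1386 and 596 in naive replicates 1 to 5 and at 23.8, 105, 13.9, 68.5 and 9.6 in IL-1β replicates 1 to 5 (log2 fold change -4.91 ± 0.73, adjusted p = 0.000141). Col8a2, a chain of the short-chain collagen VIII, went from 233, 316, 323, 585 and 297 to 18.5, 9.78, 0, 58.4 and 0 (log2 fold change -5.22 ± 1.04, adjusted p = 0.00402). Chodl, the membrane lectin chondrolectin, went from 114, 325, 343, 157 and 393 to 0, 35.9, 31.6, 0 and 18.2 (log2 fold change -4.59 ± 0.88, adjusted p = 0.000899). Groups were separate for all 3, while treated replicates were near 0 with a spread of their own. Under limma-voom these calls were lost (adjusted p = 0.0772, 0.155 and 0.0518).

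Others that fell were enzymes and membrane proteins. Ppp1r3c, which targets a phosphatase to glycogen, went from a range of 76.6 to 230 in naive to one of 0 to 49 normalised counts in treated libraries (log2 fold change -3.87 ± 0.91, adjusted p = 0.00712). Grik3, a kainate-type glutamate receptor subunit, went from a range of 11.1 to 154 in naive to one of 0 to 5.57 in treated libraries (log2 fold change -4.43 ± 1.04, adjusted p = 0.00671), and Zfp185, a LIM-domain protein of the actin cytoskeleton, from a range of 26.1 to 147 in naive to one of 0 to 8.06 in treated libraries (log2 fold change -4.0 ± 0.86, adjusted p = 0.00258). None of these 3 overlapped between groups. Calml4, a calmodulin-like protein, fell by 4.36 (adjusted p = 0.0102). Rasa4, a GTPase-activating protein of Ras, fell by 3.65 (adjusted p = 0.00398), which limma-voom did not call (adjusted p = 0.0662). Cilp, a matrix protein known from cartilage, was at 16.2, 58.8, 23.9, 73.3 and 78.4 in naive libraries and listed at 0 in all treated ones (adjusted p = 0.0176), a call lost without naive replicate 4 or 5 (adjusted p = 0.0536 and 0.0549).

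Secreted signals of development were among the genes that fell. In BMP signaling 3 of 26 genes fell and 1 rose (median -0.23). Bmp4, a ligand that shapes the enteric nervous system, was at 574, 837, 756, 392 and 690.1 in naive and at 254, 239, 215, 109 and 274 in treated libraries (log2 fold change -1.59 ± 0.32, adjusted p = 0.00158), and Crim1, a membrane protein that binds BMPs, went from a range of 752 to 1375 in naive to one of 455 to 773 in treated libraries (log2 fold change -0.98 ± 0.18, adjusted p = 0.000348). Bmp2 went the other way, from 17, 3.62, 23.9, 8.38 and 114 to 107, 295, 616, 200.4 and 574 (log2 fold change 3.88 ± 0.66, adjusted p = 8.1e-05). The groups did not overlap for Bmp4, and for Crim1 and Bmp2 only the nearest libraries of the groups crossed, so 1 BMP ligand fell and another rose in the same cultures. Id1, a target of BMP receptors, was the third member that fell, and was not called under limma-voom.

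In TGF-β signaling 2 of 18 fell. Ltbp1, which holds latent TGF-β in the matrix, went from 644, 583, 789, 724 and 674 to 379.9, 308, 351, 367 and 328 (log2 fold change -0.97 ± 0.23, adjusted p = 0.00689), and Tgfb3 also fell. In the Notch list 1 of 16 rose and 1 fell, with a median of -1.0. Rbpj, the nuclear effector, rose 1.96-fold (log2 fold change 0.99 ± 0.20, adjusted p = 0.0014) and the ligand Jag1 fell by 1.40 (adjusted p = 0.0359), a call lost on leaving out any of naive replicates 2 to 5 or IL-1β replicates 1 to 3 (adjusted p = 0.0531 to 0.143). With the 10 poly-L-ornithine libraries alone 3 Notch genes fell (Heyl, Jag1 and Lfng). In the Wnt list 1 of 31 rose and 1 fell, and that fit called 5 lower (Dkk2, Dkk3, Fzd2, Fzd8 and Lrp5). Rspo3, which amplifies Wnt signals, rose 4.31-fold (log2 fold change 1.96 ± 0.46, adjusted p = 0.0126), but not without naive replicate 1 (adjusted p = 0.052), and the co-receptor Lrp5 fell. Of 16 neurotrophin and GDNF ligands and receptors only Ntrk3, the receptor of neurotrophin-3, fell (log2 fold change -3.04 ± 0.79, adjusted p = 0.0198), and not without naive replicate 3, 4 or 5 or IL-1β replicate 3 (adjusted p = 0.0506 to 0.134). The fit of those 10 libraries also called Nrtn and Artn lower.

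Of 36 collagens, laminins and matrix proteins 2 fell in the fit over all coatings and none rose, with a median of -0.40, whereas a fit of the 10 poly-L-ornithine libraries alone called 7 lower (Col5a1, Col5a2, Col6a2, Eln, Sparc, Tgfbi and Tnc) and 3 higher (Lama4, Nid1 and Vcan). Col5a1, a fibril-forming collagen chain, went from 4498, 6564, 4578, 6386 and 4759 to 1768, 3289, 2156, 3179 and 2966 normalised counts (log2 fold change -1.02 ± 0.16, adjusted p = 2.44e-05), and its groups did not overlap. Sparc, a collagen-binding glycoprotein, was the other, and was not called under limma-voom. Summed smooth muscle markers moved in the same direction, by a factor of 2.62, and summed fibroblast markers overlapped between groups, and the part of either cell type in these falls was not tested.

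D-type cyclins, which carry growth factor signals into the cell cycle, fell. Ccnd1 was at 4395, 4739, 5117, 5323 and 4146 in naive and at 2082, 1923, 2412, 2055 and 2979 in IL-1β libraries (log2 fold change -1.06 ± 0.23, adjusted p = 0.00894), and Ccnd2 went from a range of 9056 to 17060.5 in naive to one of 5869.8 to 8446 in treated libraries (log2 fold change -0.76 ± 0.16, adjusted p = 0.00774). Both had separate groups. They were the only 2 of 31 genes of cell cycle and DNA replication to be called, while 10 had an unadjusted p under 0.05 in limma. The list median was -1.0 and 5 of the 31 were above 0. A fit of the 10 poly-L-ornithine libraries alone called Tyms higher, beside the 2 cyclins lower. Mki67, the usual marker of cycling cells, was at no more than 84.8 in any library. In cholesterol and fatty acid synthesis 0 of 24 genes were called in limma or limma-voom and 9 had an unadjusted p under 0.05, with a median of -0.63 and 1 gene above 0. With the 10 poly-L-ornithine libraries alone 5 of them fell, beside 338 of all 17705 genes tested in that fit.

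In glycolysis and the hypoxia response 2 of 24 rose and 1 fell, and with the 10 poly-L-ornithine libraries alone 7 rose (Egln3, Hif1a, Hk2, Ldha, Pkm, Slc2a1 and Vegfa) and 1 fell. Hif1a, the oxygen-sensitive transcription factor, rose 2.81-fold, from a range of 288 to 474 in naive to one of 879.7 to 1495 in treated libraries (log2 fold change 1.48 ± 0.20, adjusted p = 6.79e-07), and Pkm, pyruvate kinase, also rose. Adm, the vasodilator peptide adrenomedullin, fell from 1395, 1898, 1376, 1570.4 and 1271 to 949, 957, 490.1, 949.7 and 500.3 (log2 fold change -1.02 ± 0.21, adjusted p = 0.00318). All 5 treated libraries were below all 5 naive ones for Adm, a gene known as a hypoxia target. Over all coatings 0 of 20 genes of the integrated stress and unfolded protein response and 0 of 17 channel genes were called in limma or limma-voom, and 1 and 4 of them had an unadjusted p under 0.05. The fit of the 10 poly-L-ornithine libraries alone called Slc3a2 higher and Calr lower in the stress list, and Kcna1 lower among the channels.

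Of 20 enteric glial markers tested, 3 fell and none rose, with a median of -0.34. Cryab, a small heat shock protein, was at 10488, 6368, 12841, 6393 and 9271 in naive replicates 1 to 5 and at 3428, 2873, 4571, 2774 and 3550 in IL-1β replicates 1 to 5 (log2 fold change -1.37 ± 0.21, adjusted p = 0.000253). S100b went from 3240.2, 1183, 2904, 2482 and 2969.5 to 683, 468, 916, 1184 and 673 (log2 fold change -1.69 ± 0.35, adjusted p = 0.0063), with naive replicate 2 within the treated range. Entpd2, an ectonucleotidase that breaks down extracellular ATP, went from a range of 1039 to 2296 in naive to one of 581 to 1017 in treated libraries (log2 fold change -1.03 ± 0.24, adjusted p = 0.01). Without the trend and robust settings of limma, the Entpd2 call was lost (adjusted p = 0.0647).

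Gfap, the intermediate filament of reactive glia, was at 454, 339, 583, 415 and 625 in naive and at 155, 298, 156, 154 and 296 in treated libraries. Its groups did not overlap, and it did not pass the test in the fit over all coatings (log2 fold change -1.22 ± 0.47, adjusted p = 0.242) but did with the 10 poly-L-ornithine libraries alone (adjusted p = 0.00162). Sox10 was at 11309, 4979, 9370.4, 4923 and 7319.7 and 8926, 5733, 7377, 4981 and 4384 (log2 fold change -0.24 ± 0.32, adjusted p = 0.876), with overlap between the groups. Summed over the 20 markers, the level was 22522 to 48022 in naive and 18156 to 30359 in treated libraries, which overlap. The 16 genes of the Schwann and myelin program summed to 3943 to 6243 and 2438 to 3687, which do not overlap. In limma and limma-voom 0 of the 15 tested were called and 5 had an unadjusted p under 0.05 (median -0.87), while 2 fell with the 10 poly-L-ornithine libraries alone (Mbp and Pmp22, both of myelin).

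**Figure D4:**
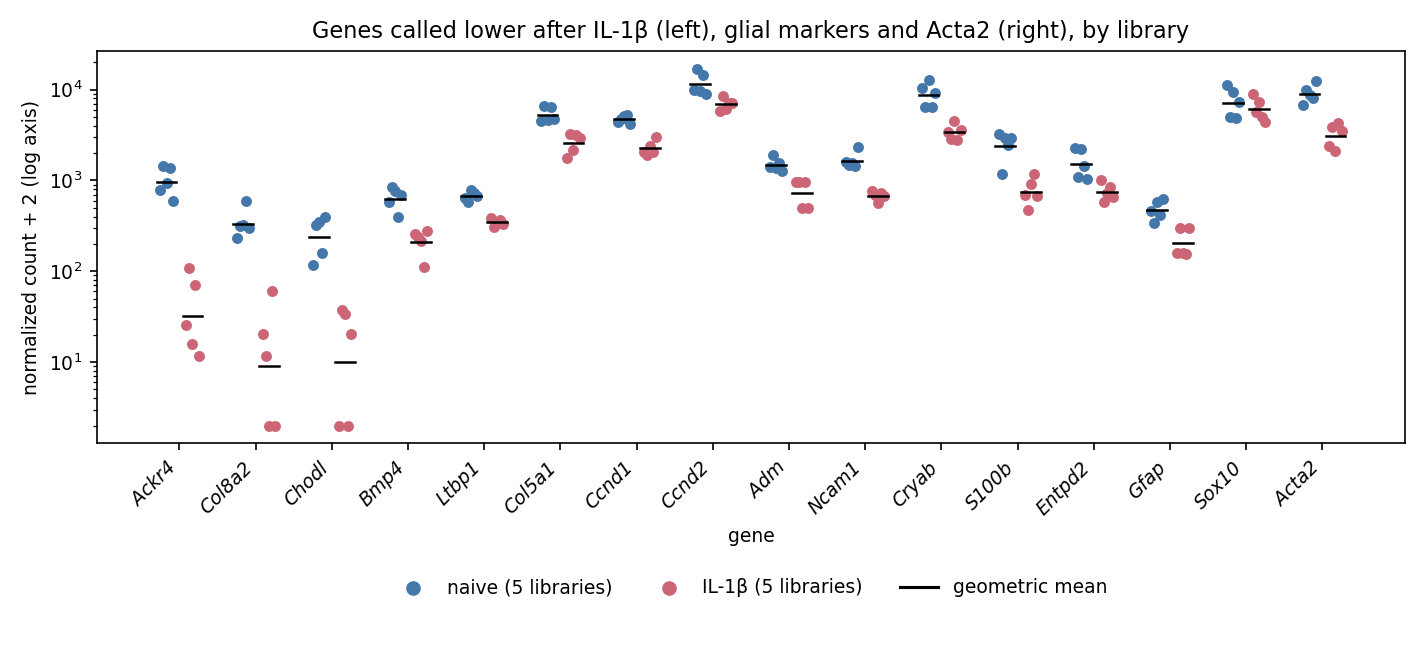
Normalised counts plus 2 on a log axis for 16 genes, with 1 point per library, naive in blue and IL-1β in red, and a bar at the geometric mean. The genes from Ackr4 to Ncam1 were called lower with IL-1β, as were the glial genes Cryab, S100b and Entpd2. Gfap and Acta2 have separate groups without passing the test, and the groups of Sox10 overlap.

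Summed over 14 smooth muscle markers, the level was 10465, 13830, 13011, 12107 and 19307 normalised counts in naive replicates and 3944, 5976, 3358, 6801 and 6144 in treated ones, with no overlap and a naive mean 2.62 times as high. Of 13 tested, 2 fell, none rose and the median was -1.63. Tpm2, a tropomyosin, went from 1317, 1691, 1878, 1577 and 3042 to 370.2, 775, 418, 812 and 729.8 (log2 fold change -1.63 ± 0.43, adjusted p = 0.043). Its call was lost on leaving out any library other than naive replicate 1 or IL-1β replicate 4 (adjusted p = 0.054 to 0.134). Lmod1, leiomodin, went from 94.5, 11.8, 70.8, 35.6 and 26.1 to 0, 0, 0, 21.1 and 0 (log2 fold change -3.62 ± 1.03, adjusted p = 0.043), and its call was lost without any library other than naive replicate 2 or IL-1β replicate 4 (adjusted p = 0.0666 to 0.131). Acta2, which encodes smooth muscle actin, was at 6834, 9919, 8641, 8167 and 12501 in naive and at 2377, 3869, 2120, 4247 and 3478 in treated libraries and missed the threshold (log2 fold change -1.54 ± 0.44, adjusted p = 0.0663). With the 10 poly-L-ornithine libraries alone Acta2 passed (adjusted p = 0.0011), as did Myl9 (adjusted p = 3.14e-05) and Tagln (adjusted p = 0.00168), and 6 of 12 markers fell.

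Summed fibroblast markers were 31811 to 67790 in naive and 21466 to 67235 in treated libraries, and summed neuronal markers 5964 to 12457 and 7176 to 11021, both with overlap. Over all coatings 0 of 14 fibroblast and 0 of 16 neuronal markers were called in limma or limma-voom, and 2 and 0 had an unadjusted p under 0.05. The fit of the 10 poly-L-ornithine libraries alone called 1 fibroblast marker, Cd34, lower. The endothelial, mesothelial and epithelial lists had 0 of 10, 0 of 8 and 0 of 6 called, with 0, 2 and 0 at an unadjusted p under 0.05. Only Cd44, which stands among the markers of interstitial cells of Cajal as well as in the adhesion list, was called in the remaining list, where Kit was at most 36.9 in any library. Whether these shifts in cell type markers have a part in the genes that rose or fell was not tested.

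The same treatment on the other coatings, which have their own naive libraries, called 405 genes on Matrigel (1.96%) and 389 on laminin (1.88%). No gene passed the test of a different response on poly-L-ornithine against Matrigel and laminin together, the smallest adjusted p being 0.416, with 867 genes at an unadjusted p under 0.05. The smallest adjusted p was 0.843 against Matrigel alone and 0.969 against laminin alone, with 807 and 789 genes at an unadjusted p under 0.05. The counts of 867, 807 and 789 were each below 0.05 of the 20687 genes tested, the share that evenly spread p-values would give. In limma-voom 3 genes differed from both coatings together (Cdc45, Gzme and Tbx5, adjusted p = 0.0486 for each) and in limma without the trend and robust settings 1 gene (Tbx5, adjusted p = 0.0135). These 3 were named after their values were seen.

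The genes called on poly-L-ornithine were set beside their values on the other coatings as a description, since they were chosen on the poly-L-ornithine values. Of the 249 that rose, 233 had a positive fold change on both other coatings, 156 were called on Matrigel (62.7% of these genes and 66.4% of those that rose on Matrigel) and 160 on laminin (64.3% and 67.5%). Of the 235 that fell, 210 had a negative fold change on both, 82 were called on Matrigel (34.9% and 48.2%) and 73 on laminin (31.1% and 48.0%). The share of genes that rose and were called on neither was 70 of 249, beside 133 of 235 for those that fell. The difference between these shares was not tested.

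**Figure D5:**
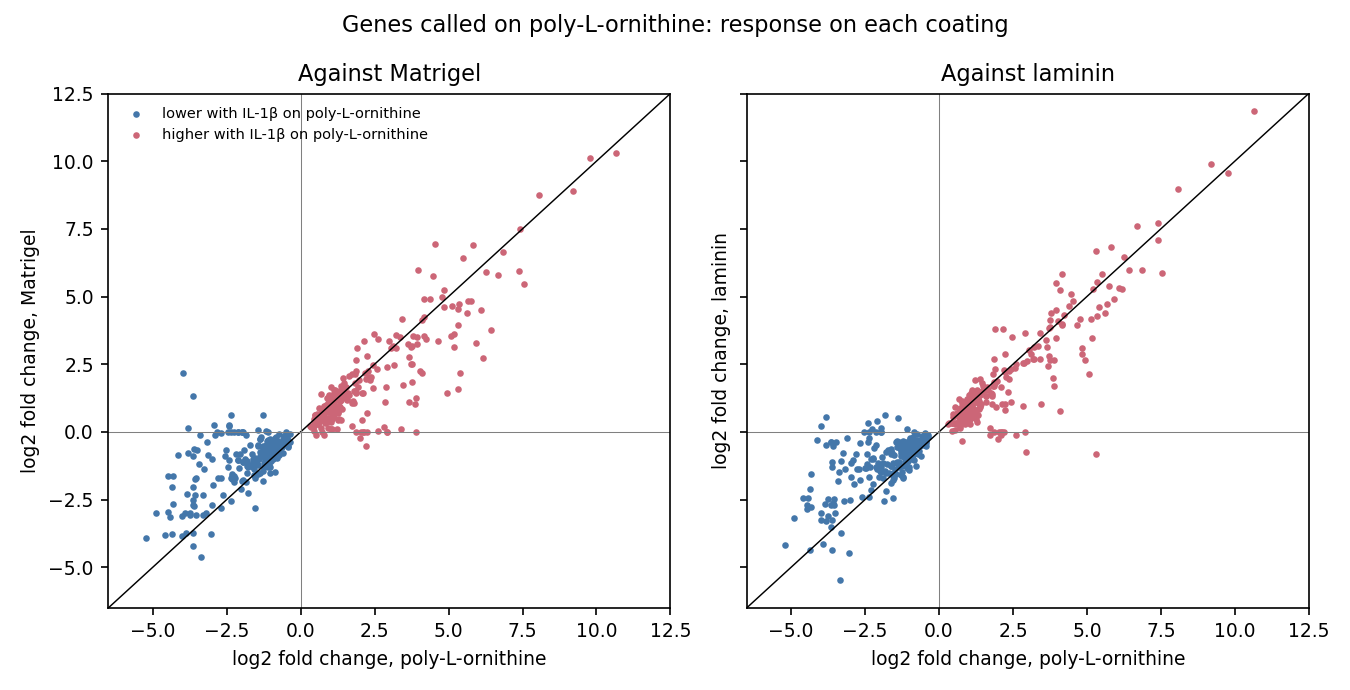
Log2 fold change of IL-1β against naive on Matrigel (left panel) and laminin (right panel), both on the vertical axis, against that on poly-L-ornithine (horizontal axis), for the 249 genes that rose (red) and the 235 that fell (blue) on poly-L-ornithine. The diagonal marks equal change. Red points run along the diagonal up to Cxcl5 at 10.66, and many blue points lie above it, with a smaller fall on the other coatings, for genes that were chosen on their poly-L-ornithine values.

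Side by side, the log2 fold change of Cxcl5 was 10.66 on poly-L-ornithine, 10.29 on Matrigel and 11.84 on laminin. For Ccl2 these values were 5.49, 6.44 and 5.85, and for Nfkbia 3.63, 3.25 and 3.41. For Saa3 they were 9.2, 8.91 and 9.90. None of these 4 genes passed the test of a different response. Among genes that fell, the values were -4.91, -3.01 and -3.17 for Ackr4, -1.37, -1.53 and -1.28 for Cryab and -1.06, -0.51 and -0.68 for Ccnd1. The cell cycle list had a median of -1.0 on poly-L-ornithine, -0.14 on Matrigel and 0.00 on laminin, and cholesterol synthesis -0.63, -0.12 and -0.03, with no gene of either list called for a different response. The interferon-stimulated list had medians of 0.33, 1.05 and 0.93.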

How the data were processed

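RNA of the 10 cultures on poly-L-ornithine was sequenced from the 3′ end (QuantSeq). The authors trimmed reads with cutadapt, aligned them with STAR to mm10 and quantified them in Partek Flow. The deposited table holds 1 signal value per gene and library, a read count that the authors normalised between libraries, by a method not given in the sources used here. DESeq2, which the authors ran on these values, was not used. Strand use in counting is not given in the sources used here, so overlapping and antisense genes cannot be told apart. Between 84.1% and 85.5% of low values were whole multiples of 1 read (tolerance 0.02), so no count test was run. Depth was estimated from them at 8.19 to 9.83 M reads a library. Values were tested as log2(value + 2) with limma 3.58.1 in R 4.3.3 (trend and robust settings), over genes with a maximum above 15 in the 30 culture libraries, which share 1 estimate of spread over 6 groups, with Benjamini-Hochberg adjustment and a threshold of 0.05.

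The members and lists were chosen with earlier results of these data known. Named genes were the 15 largest changes per direction among called genes whose groups did not overlap and whose higher group averaged 50 or more, the 4 members of each of 37 lists that ranked first by adjusted p, and genes the study names. Of the listed genes, 13 were not analysed here. Some genes are not reported here. The limma step was tested on simulated data. Alternatives were other pseudocounts, filters, scalings and settings of limma, limma-voom, the 10 libraries alone, a replicate block and leaving out each library. Promoters are from RefSeq (GRCm38.p6). Figures used matplotlib 3.10.9.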

Additional observations from a re-analysis of the deposited data

Results flagged for a closer look

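Each of 190 groups of 5 libraries was examined for 1 library far from the other 4, and 19 such libraries were found. Chance gives this in about 1 of 20 groups of normally distributed values, a rate that does not hold for groups with values at 0. There, 1 value above 0 beside 4 at 0 was always flagged, and a group all at 0 could not be. The count of 19 is therefore not set against that rate. Several of the 19 were single values above 0 where the other 4 naive libraries were at 0. These were Cxcl5 at 10.5 in naive replicate 4, Ccl5 at 0.92 and Trdc at 14.7 in naive replicate 3, Cxcl10 at 23, Mmp10 at 37.5 and Mmp13 at 7.66 normalised counts in naive replicate 1, and Hp at 1.87 and Sprr2b at 20.5 in naive replicate 5. Lmod1 was at 21.2 in IL-1β replicate 4 and at 0 in the other treated libraries.

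Single low libraries were naive replicate 2 for Cxcl1 (0, the others 20.4 to 39.2), Gch1 (0, the others 70.0 to 121) and S100b (1180, the others 2480 to 3240), naive replicate 1 for Rspo3 (45.1, the others 121 to 175), IL-1β replicate 3 for Cfb (86.3, the others 119 to 133) and IL-1β replicate 4 for Gbp5 (50.4, the others 116 to 160) and Bmp4 (109, the others 215 to 274). Single high libraries were naive replicate 5 for Sod2 (1220, the others 742 to 835) and Ncam1 (2320, the others 1450 to 1620) and naive replicate 3 for Il1r1 per 1000 of the reference genes (10.6, the others 3.20 to 4.42).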

How the results depend on the processing

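Limits come from the depth, which leaves genes near 0 with wide errors, from cultures of mixed cells and from scaled values without counts. The count of 484 genes lay between 331 and 679 in the alternatives without a block and without leaving out a library. With the trend and robust settings of limma off, 149 rather than 235 genes fell. With a replicate block and the 10 poly-L-ornithine libraries alone, 1094 genes were called (505 rose and 589 fell, 458 shared with the 484), against 679 without the block. Same-numbered libraries of the groups correlated in their deviations from the group means at 0.0358 to 0.0566 over 20687 genes and at 0.071 to 0.169 over 9032 genes with a mean log2 value over 6, where 4 of 5 were above 0.1. The numbers were not taken as pairs, since the study states no pairing, though every library correlated best with its own number. Library serial numbers also ran in the same order in both groups, with ranks 3, 2, 5, 1 and 4 for replicates 1 to 5. Both are hints of pairing, which the study's design does not state. A replicate block over all coatings gave 447 genes. Leaving out 1 library gave 346 to 446 genes, 177 to 223 that rose and 160 to 224 that fell, and 145 of the 249 genes that rose and 107 of the 235 that fell were called each time. The pseudo-F was then 1.51 to 1.63. No gene passed the test of a different response on poly-L-ornithine, except 3 in limma-voom and 1 with the trend and robust settings off. Not passing this test does not show that responses were equal. The Il1r1 ratio ran from 1.69 to 3.27 on leaving out 1 library. Of the 76 genes described and called, 56 were called in every alternative, 7 were lost on leaving out some library and 18 in some other alternative. No result turned its direction.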
